A study of Mus musculus with 27 samples.

Results

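Before birth, at E16.5, 3370 of the 50858 H3K27ac sites of mouse fetal hematopoietic progenitor cells (HPC) also carried a fetal H3K4me1 peak and met no H3K27ac or H3K4me1 peak of adult HPC, which is 6.63% of the fetal list (95% interval 6.41% to 6.85%). These 3370 sites, called members here, were chosen by overlap of at least 1 bp between the authors' peak lists of fetal and adult HPC. The choice used all 4 HPC lists of these 2 marks, so the fetal signal at the members and its lack in adult HPC describe the rule and are not findings. Of the other fetal H3K27ac sites, 6320 overlapped H3K4me1 but not H3K27ac in adult HPC (H3K4me1-kept sites) and 28287 overlapped both adult marks (both-kept sites). A further 387 overlapped adult H3K27ac but not adult H3K4me1, and 12494 had no fetal H3K4me1 peak.

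All mice were on the B6 background. Progenitors and hematopoietic stem cells (HSC) were sorted from fetuses at E16.5 and from adults aged 8 weeks, and histone marks were mapped by ChIPmentation, in which antibody-bound chromatin is tagged by the Tn5 transposase. The groups were fetal HPC H3K27ac (3 libraries, 50858 peaks), fetal HPC H3K4me1 (3, 177310 peaks), adult HPC H3K27ac (3, 63108 peaks), adult HPC H3K4me1 (3, 126502 peaks), fetal HSC H3K4me1 (3, 231188 peaks) and adult HSC H3K4me1 (4, 143571 peaks). A second K27 set of HPC had 2 fetal and 3 adult libraries, with 54339 and 54293 peaks. Its titles say H3K27me3 and its mark field says H3K27ac, and it is called the second K27 set here. The sources used here do not give the surface markers of the sort or any pooling of animals. Each group had 1 pooled peak list, read depth is unknown, and no spread between replicates could be measured, so no p-value is given and every interval covers counting error only.

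H3K4me1 is laid down at enhancers, the distal elements that raise transcription of genes in a given cell type, and on the flanks of promoters. H3K27ac is added where an enhancer or promoter is active. An enhancer can lose H3K27ac and stay primed with H3K4me1, and loss of both marks is what is meant by decommissioning. In blood formation the fetal liver holds rapidly dividing stem and progenitor cells, and the adult bone marrow holds mostly quiescent stem cells.

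Few members lay at gene starts. Of 32851 RefSeq promoter windows (GRCm38.p6, 300 bases each, 250 before and 50 after the start), 15 overlapped a member, against 62 for H3K4me1-kept and 9272 for both-kept sites. These are window counts for classes of 3370, 6320 and 28287 sites, and no share per site was computed. The 15 windows belonged to 14 genes, 8 of them protein-coding. The 250 bases before the start are shown for 3 of those genes as examples of the rare members at a promoter, written 5′ to 3′ on the gene's strand with the bases inside a member in capitals.

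Hbb-bs: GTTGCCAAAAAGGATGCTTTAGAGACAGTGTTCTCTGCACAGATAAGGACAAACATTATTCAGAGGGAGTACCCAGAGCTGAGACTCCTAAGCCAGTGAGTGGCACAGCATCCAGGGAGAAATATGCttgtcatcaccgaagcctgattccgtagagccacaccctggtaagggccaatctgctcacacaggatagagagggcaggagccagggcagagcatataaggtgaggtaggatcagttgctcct
Fgd4: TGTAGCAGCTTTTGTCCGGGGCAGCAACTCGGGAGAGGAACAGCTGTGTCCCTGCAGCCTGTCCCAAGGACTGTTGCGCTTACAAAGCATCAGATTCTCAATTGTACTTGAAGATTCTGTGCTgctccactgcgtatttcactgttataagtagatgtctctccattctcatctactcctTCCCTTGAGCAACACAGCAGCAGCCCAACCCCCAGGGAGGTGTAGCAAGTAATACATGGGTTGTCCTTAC
Liph: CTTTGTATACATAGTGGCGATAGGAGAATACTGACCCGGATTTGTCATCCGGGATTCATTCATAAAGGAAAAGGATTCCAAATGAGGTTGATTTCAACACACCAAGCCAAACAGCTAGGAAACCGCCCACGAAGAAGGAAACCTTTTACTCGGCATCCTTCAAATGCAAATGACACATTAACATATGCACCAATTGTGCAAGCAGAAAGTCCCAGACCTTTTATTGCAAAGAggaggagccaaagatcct

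Hbb-bs, an adult beta-globin gene, is on the minus strand of chromosome 7, and the stretch is chr7:103827929-103828178. The member there reached 127 bases into it, was 1018 bp wide and had a fold over background of 2.01, among the weakest of the fetal H3K27ac list. Hbb-bs has a near-identical neighbour, Hbb-bt, so reads there can be assigned uncertainly. The Fgd4 stretch (chr16:16527412-16527661, minus strand) was covered at both ends by 2 members, with folds of 2.93 and 2.68. Fgd4 encodes an exchange factor for the small GTPase Cdc42. The Liph stretch (chr16:21995543-21995792, minus strand) held 232 bases of a member with a fold of 2.93, and of the 3 it alone overlapped an adult HSC H3K4me1 peak. Liph encodes a lipase. Searched on both strands, AGATAA, a form of the GATA motif, occurred in 4 of the 15 windows (26.7%) and in 11.2% of all windows, and in the Hbb-bs stretch it began at position 41, counted from 1 at the 5′ end. GGGCGG, the GC box found in many CpG-rich promoters, occurred in 3 of the 15 (20%), in 35.7% of all windows and in 63.2% of windows overlapping a both-kept site. The other motifs searched were CCGGAAGT and ACAGGAAG (ETS), in 0 and 2 of the 15, against 3.89% and 3.58% of all windows. TGTGGT (RUNX) occurred in 3 of the 15 (20%), TGANTCA (AP-1) in 2 (13.3%) and CANNTG (E-box) in 11 (73.3%). Their shares of all windows were 16.8%, 7.81% and 72.3%. The AGATAA matches in the Gm29887 and 6030498E09Rik windows lay outside the member. Such matches describe letters in the windows and not binding.

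The members were weak and narrow peaks. Their fold over background, the authors' value for each peak, had a median of 2.93 (quartiles 2.68 and 3.22, highest 9.62), against 3.01 at H3K4me1-kept and 4.10 at both-kept sites. The median width was 337 bp, against 382 and 954 bp. When the fetal list was split into quartiles by −log10 p, 30 members fell in the strongest quartile, 618 and 1268 in the middle ones and 1454 in the weakest. The H3K4me1 peak under a member was also modest, with a median fold of 3.11 and width of 753 bp, against 5.50 and 2930 bp at H3K4me1-kept sites. The 3370 members lay on 3268 distinct fetal HPC H3K4me1 peaks, so some members share a peak.

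The name decommissioned holds by the overlap rule and less clearly by distance. An adult HPC H3K4me1 peak lay within 1 kb of 1441 members (42.8%), and an adult HPC H3K27ac peak lay within 1 kb of 553 (16.4%). At 1851 members (54.9%) neither adult mark had a peak within 1 kb, and at 986 (29.3%) neither had one within 5 kb. At the edge of the rule, the 336 sites removed by an adult overlap of 1 to 99 bp had a median fold of 2.93 and the 281 members with an adult peak within 100 bp had 2.97. The count was 2078 with fetal peaks of −log10 q of at least 5 and 268 among the strongest 20000 fetal H3K27ac sites. A site without a called peak can still carry some of the mark.

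The strongest members included sites far from any gene. The strongest, at chr13:16603717-16603995, had a fold of 9.62 over 279 bp, had no protein-coding gene within 100 kb, and overlapped HSC H3K4me1 with a fold of 13.0 in the fetal list and 3.08 in the adult list. Folds are set side by side here without being compared between lists. The next, at chrX:43949505-43949863, had a fold of 8.03, also had no gene within 100 kb, and overlapped a fetal but no adult HSC peak. Among the 10 strongest, 6 had a gene within 100 kb: Prkd1 (fold 7.20), a serine/threonine kinase gene, Osbpl8 (6.03), which encodes a lipid transfer protein, Trio (5.77), a guanine nucleotide exchange factor gene, Mto1 (5.77), a mitochondrial tRNA modification gene, Cacul1 (5.69) and Camk1g (5.52), a calcium-dependent kinase gene. The Prkd1, Osbpl8 and Mto1 members were 1726, 1685 and 1717 bp wide, unlike most members, of which 20 in all reached 1000 bp. Of the strongest 20 members, 12 were narrower than 500 bp.

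The HSC H3K4me1 lists, which the rule did not use, were compared with the same sites at both ages. This comparison is not independent of the rule, which used the same mark in HPC. By definition, members lacked an adult HPC H3K4me1 peak, while H3K4me1-kept and both-kept sites overlapped one. A lower adult HSC share at members can therefore come partly from how the sites were chosen. The size of that part was not tested. In fetal HSC, 2788 members (82.7%, interval 81.4% to 84.0%) overlapped an H3K4me1 peak, against 75.1% of all fetal H3K27ac sites. The share was 97.1% at H3K4me1-kept and 96.8% at both-kept sites. In adult HSC, 740 members (22.0%, 20.6% to 23.4%) overlapped an H3K4me1 peak, against 69.1% of all fetal H3K27ac sites, 84.2% of H3K4me1-kept and 97.6% of both-kept sites. In adult HSC the share of members minus that of H3K4me1-kept sites was −62.2 percentage points (interval −63.8 to −60.5), and minus that of both-kept sites it was −75.6 points (−77.0 to −74.2). In fetal HSC the differences were −14.4 points (−15.7 to −13.0) and −14.1 points (−15.4 to −12.9). When an HSC peak had to cover the site's summit, the fetal HSC difference from both-kept sites turned to 5.26 points, higher at members.

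**Figure D1:**
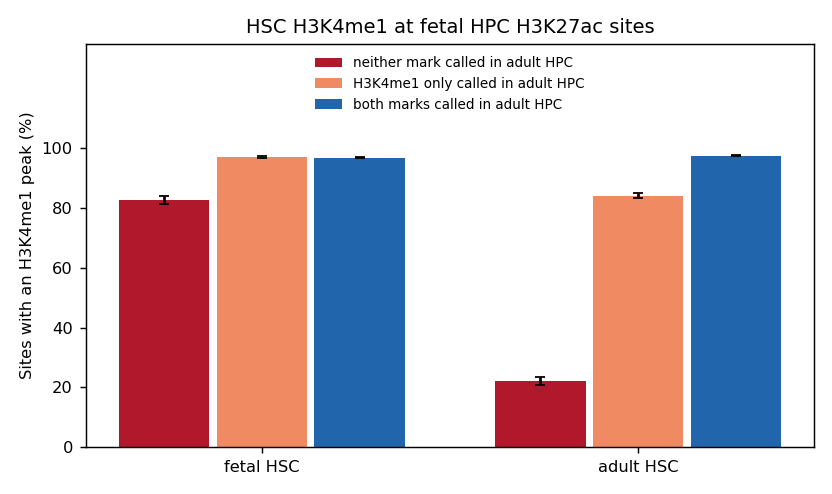
Share of fetal HPC H3K27ac sites (percent, vertical axis) with an H3K4me1 peak in fetal and in adult HSC, by what was called in adult HPC, with 95% Wilson intervals. Members stand at 82.7% in fetal HSC and at 22.0% in adult HSC, while both-kept sites stand at 96.8% and 97.6%.

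Taken site by site, 2060 members (61.1%) had an H3K4me1 peak in fetal HSC and none in adult HSC. Another 728 (21.6%) had one at both ages, 12 only in adult HSC and 570 (16.9%) at neither age. Among sites with a fetal HSC peak, 73.9% of members had no adult HSC peak, against 14.3% of H3K4me1-kept sites, 1.91% of both-kept sites and 12.4% of all sites. Most members therefore lacked an H3K4me1 call in adult HSC as well as in adult HPC. The 740 members with an adult HSC call lay on 723 distinct adult HSC peaks.

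Peak strength moved with these shares. Within quartiles of the fetal HPC H3K27ac list, from strongest to weakest, adult HSC H3K4me1 was called at 30%, 24.3%, 22.3% and 20.5% of members, against 91.9%, 87.6%, 83.5% and 82.4% of H3K4me1-kept sites. Within quartiles of the fetal HPC H3K4me1 list the shares were 33.4%, 24.1%, 14.8% and 7.85% at members and 87.3%, 71.6%, 63.1% and 55.1% at H3K4me1-kept sites. Within quartiles of the fetal HSC H3K4me1 list they were 40.3%, 16.1%, 8.14% and 6.70% at members and 90.4%, 67.8%, 55.2% and 41.3% at H3K4me1-kept sites. In each quartile of each of these 3 splits the members were lower, and members over the strongest fetal HSC peaks kept an adult HSC call most often. Nearness to an adult HPC peak also moved with the share, since 392 of 1519 members with an adult HPC peak within 1 kb (25.8%) and 348 of 1851 without one (18.8%) had an adult HSC call. At the edge of the rule, 36.7% of the 281 members with an adult HPC peak within 100 bp had an adult HSC call. Of the 336 sites removed by an adult HPC overlap of 1 to 99 bp, 50% had one. The gap from members was thus smaller at the edge than over the whole classes. The part of strength differences that remain within a quartile was not tested.

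**Figure D2:**
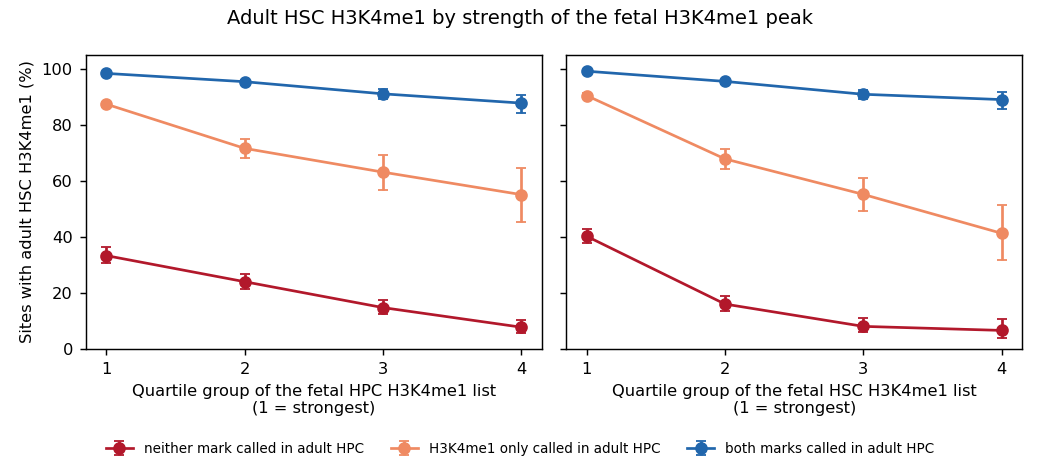
Share of sites with an adult HSC H3K4me1 peak (percent, vertical axis) by quartile of the fetal HPC (left) and fetal HSC (right) H3K4me1 list, strongest first, with 95% Wilson intervals. Members fall from 33.4% to 7.85% on the left and from 40.3% to 6.70% on the right, below both other classes in each quartile.

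Members lay far from gene ends. Only 90 members (2.67%) were within 1 kb of the start or end of a protein-coding gene, against 21.3% of all fetal H3K27ac sites and 30.9% of both-kept sites (difference −28.2 points, −29.0 to −27.4). H3K4me1-kept sites were at 3.39%, and their difference from members had an interval that included 0 (−0.72 points, −1.40 to 0.016). More than 10 kb from any gene start or end were 2750 members (81.6%), against 59% of all sites, 71.1% of H3K4me1-kept and 47.7% of both-kept sites. Members exceeded these last 2 classes by 10.5 points (8.76 to 12.2) and 33.9 points (32.4 to 35.3). The median distance to a gene start or end was 33117.5 bp for members, 23952.5 bp for H3K4me1-kept and 8538 bp for both-kept sites. Inside a gene body lay 2477 members (73.5%), against 71% of all sites, so most members were inside genes and away from their ends. On the X chromosome lay 13 members (0.386%), against 1.12% of all sites, 0.570% of H3K4me1-kept and 0.686% of both-kept sites. The differences from these last 2 classes were −0.18 points (−0.45 to 0.13) and −0.30 points (−0.49 to −0.013).

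**Figure D3:**
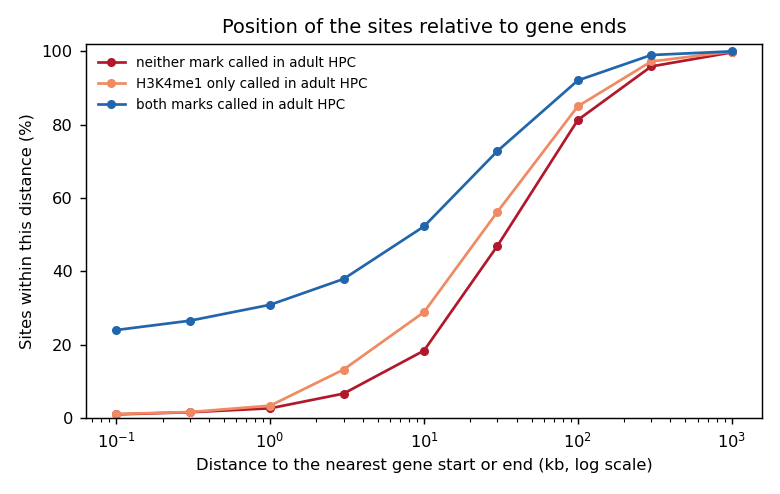
Cumulative share of sites (percent, vertical axis) within a given distance of the nearest protein-coding gene start or end (kb, log scale), by class. From 1 kb to 300 kb the curve of members runs below the others, with 2.67% of members and 30.9% of both-kept sites within 1 kb.

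Of the 3370 members, 3065 were assigned to a nearest protein-coding gene within 100 kb, which is 6.49% of the 47262 sites so assigned, and 305 had no such gene. They fell on 1877 genes, of which 1284 had 1 member and 73 had 5 or more. At 1604 of these genes (85.5%) there was also a both-kept site, and at 94 (5.01%) every fetal H3K27ac site was a member. Most genes with a member also had a site marked at both ages, and both-kept sites made up 55.6% of all fetal H3K27ac sites. At 1401 genes with a member (74.6%) adult HPC had an H3K27ac site that met no fetal HPC H3K27ac site. The same shares over all 12773 genes with a fetal H3K27ac site were not computed, so these shares are not particular to genes with a member.

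Mecom, which encodes the zinc finger transcription factor EVI1 that stem cells require, had the most members, with 17 of its 69 fetal H3K27ac sites (24.6%). All 17 lay inside the gene, with folds from 2.45 to 3.85, and all 17 overlapped fetal HSC H3K4me1. Of these 17, 9 also overlapped adult HSC H3K4me1, where 22% of all members did, and 10 had an adult HPC peak within 1 kb. The Mecom gene body held 210 H3K4me1 peaks in fetal HPC and 88 in adult HPC, and 334 in fetal HSC and 162 in adult HSC. Its strongest member, chr3:30211616-30212046, had a fold of 3.85, no adult HPC peak within 1 kb and no adult HSC peak. The member at chr3:30162406-30162636 had an adult HSC peak with a fold of 6.09, the highest of the Mecom members.

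Mllt3, which encodes the elongation complex subunit AF9 that sustains stem cells, had 11 members of 25 sites (44%), all inside the gene. All 11 overlapped fetal HSC H3K4me1 (82.7% of all members did) and 6 overlapped adult HSC H3K4me1. In 3 of these 6, at chr4:87799737-87800012, chr4:87800854-87801170 and chr4:87804301-87804623, the adult HSC peak was one and the same, with a fold of 4.58. The Mllt3 body held 109 H3K4me1 peaks in fetal HPC, 45 in adult HPC, 119 in fetal HSC and 116 in adult HSC. Peak numbers in adult HSC were thus near those of fetal HSC at Mllt3, while at Mecom they were lower. The fetal HSC list was the longer one as a whole. A peak number does not give the length covered. At Mllt3, 1 fetal HSC peak ran from −48641 to −37474 bp from the summit of the strongest member. Over that stretch the adult HSC list had shorter, separate peaks. The lengths covered were not compared.

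**Figure D4:**
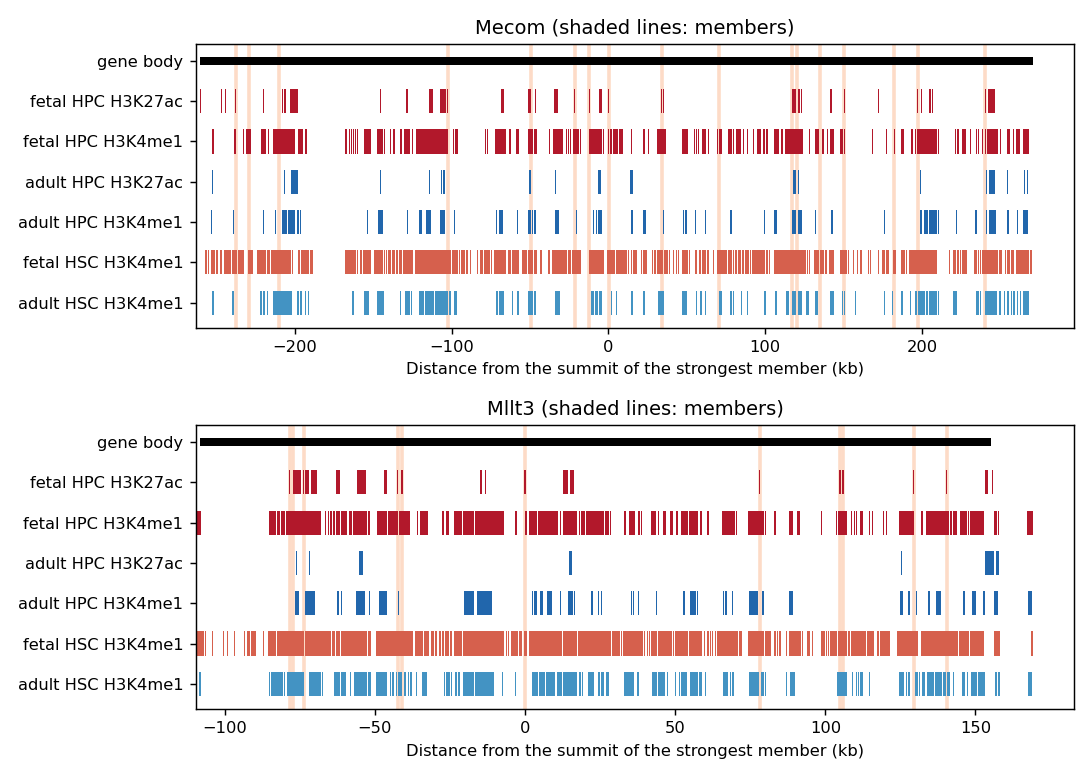
Peaks of each list around Mecom and Mllt3, with distance from the summit of the strongest member in kb on the horizontal axis, 1 row per list and shaded lines at the members. The 17 Mecom and 11 Mllt3 members are spread over the gene bodies, and 9 and 6 of them meet an adult HSC peak.

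Ikzf2, the gene of the zinc finger factor Helios, had 11 members of 46 sites (23.9%), of which 3 had an adult HSC peak. Svil, the gene of the actin-binding protein supervillin, had 10 of 31 sites, of which 4 had an adult HSC peak. Apart from Mecom, Mllt3 and Svil, the 12 genes with most members had between 0 and 3 members with such a peak. Pde4d, a cAMP phosphodiesterase gene, had 13 of 72 sites, of which 1 had an adult HSC peak. Foxp1, a forkhead factor gene, had 12 of 89 sites, of which 2 did. Trio had 10 of 47, Vwa8 10 of 34 and Mctp2, which encodes a membrane protein with C2 domains, 9 of 24, and none of the members of these 3 genes had an adult HSC peak. Utrn, the utrophin gene, had 11 of 60 and Babam2, which encodes a subunit of deubiquitinase complexes, 10 of 32, with 3 and 2 in adult HSC. Man1a, a Golgi mannosidase gene, had 11 of 28 sites, with 2 in adult HSC. Of the 73 genes with 5 or more members, 28 had no member with an adult HSC peak and at 35 every member had a fetal HSC peak. At 14 of the 73, at least 1 in 2 members had an adult HSC peak. Over all members, 22% had an adult and 82.7% a fetal HSC peak.

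The gene lists were counted against 6.49% over all assigned sites. The HSC identity list had 51 members among 460 sites (11.1%, 8.53% to 14.3%), of which 39 belonged to Mecom, Ikzf2 and Mllt3. Of these 51 members, 23 (45.1%) had an adult HSC peak and 29 had an adult HPC peak within 1 kb. When an adult HPC peak within 1 kb also removed a site, the list had 22 of 460 (4.78%), against 3.64% of all sites. Kit, the stem cell factor receptor gene, had 4 of 30 sites. Runx1, with 1 of 43 sites, and Etv6, with 1 of 81, had few members, and 36 and 68 of their sites had both marks at both ages. The list's share was carried by 3 genes, and its median gene had 0.617% of sites as members, against 0 over all genes.

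The fetal stem cell programme list held 14 genes, among them Lin28b, Igf2bp3, Hmga2 and Cdkn1c. It had 11 members among 68 sites (16.2%, 9.28% to 26.7%), of which 1 had an adult HSC peak. Among the strongest 20000 fetal sites it had 1 of 25 (4%), against 1.34% of all sites there. Igf2bp3, an RNA-binding protein gene of fetal and cancer cells, had 5 of 11 sites, with folds from 2.43 to 3.43. Of these 5, 4 had a fetal HSC peak, none had an adult HSC peak and 2 had an adult HPC peak within 1 kb. The Igf2bp3 body held 33 H3K4me1 peaks in fetal HPC and 10 in adult HPC. Hmga2, a chromatin architectural factor gene, had 3 of 21 sites and 11 both-kept sites. Lin28b, whose product blocks maturation of let-7 microRNAs, had 1 member of 6 sites, at chr10:45473500-45473743, with a fold of 4.02 and an adult HSC peak with a fold of 3.22. Igf2bp2 and Sox17 had 1 member each. Among imprinted growth regulators, Grb10, an adaptor that restrains insulin and IGF receptor signalling, had 3 of 6 sites and was the only one of the 7 genes with sites to have a member.

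Erythroid, lymphoid and myeloid genes had shares below 6.49%, each with an interval that included it. Erythroid and megakaryocyte genes had 2 of 88 sites (2.27%, 0.625% to 7.91%), and lymphoid priming genes had 5 of 124 (4.03%, 1.73% to 9.09%), 3 of them at Rora. Myeloid genes had 0 of 50 sites, which allows a share of up to 6% by 3 counts and 7.13% by the Wilson interval. Interferon and antigen presentation genes had 0 of 42, which allows up to 7.14% and 8.38% by the same limits. Cell cycle genes had 4 of 90 and housekeeping genes 1 of 51. IGF and growth signalling genes had 8 of 132 (6.06%), near the share of all genes, with 3 at Igf1r, the IGF receptor gene, each with an adult HSC peak. Chromatin regulators had 8 of 96, with 3 of 5 sites at Crebbp, an acetyltransferase gene that writes H3K27ac.

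Markers of other cell types were counted in the same way. Macrophage genes had 5 members among 21 sites (23.8%, 10.6% to 45.1%), 1 each at Adgre1, Mrc1, Marco, Timd4 and Vsig4, with folds from 2.26 to 3.10. At Marco and Timd4 the member was the only fetal H3K27ac site. Adult HPC had 3 H3K27ac sites at Marco that met no fetal H3K27ac site, and 0 at Timd4. The whole macrophage list had 10 both-kept sites and 18 such adult-only sites. Endothelial genes had 4 of 48, stromal genes 1 of 10, hepatocyte genes 0 of 11, T and NK cell genes 0 of 15 and B cell genes 0 of 5. The part of a change in cell makeup of the sorted cells in these counts was not tested.

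**Figure D5:**
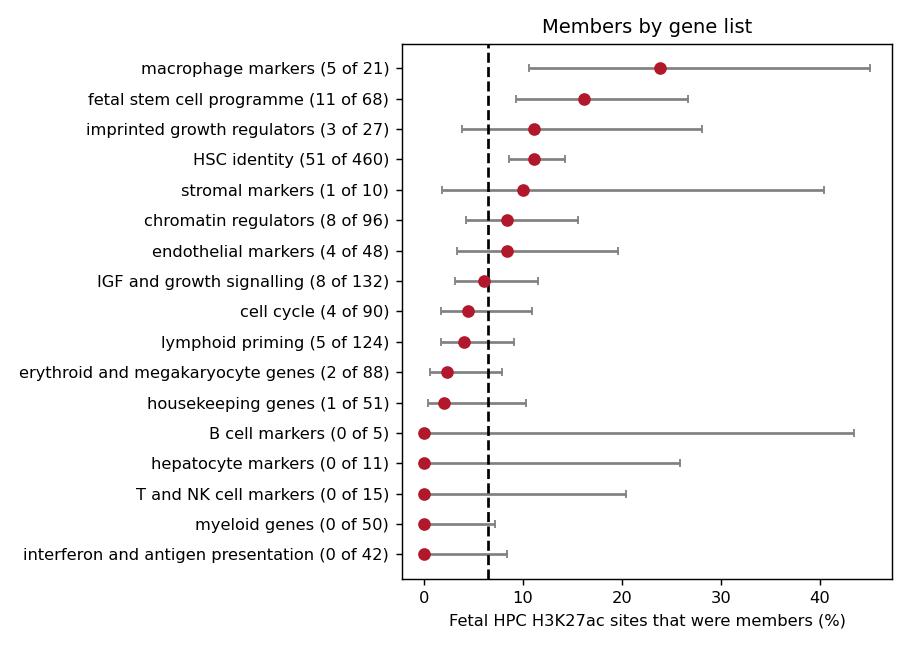
Share of fetal HPC H3K27ac sites that were members (percent, horizontal axis) for each gene list, with members and sites in brackets, 95% Wilson intervals and a dashed line at 6.49%, the share over all assigned sites. Macrophage markers (23.8%), the fetal stem cell programme (16.2%) and HSC identity (11.1%) lie to the right of the line with their intervals, and erythroid genes (2.27%) lie to its left with an interval that crosses it.

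Members lay near each other. The nearest fetal H3K27ac site was itself a member for 623 members (18.5%), against 6.08% of all sites, 7.26% of H3K4me1-kept and 3.68% of both-kept sites, differences of 11.2 points (9.79 to 12.7) and 14.8 points (13.5 to 16.2). Another member lay within 10 kb of 767 members (22.8%), and 57 chains of 3 or more members held 187. Chains were not counted within the other classes, so these counts cannot show whether members cluster more than those sites do. The largest chain had 6 members over 6734 bp inside Man1a, at chr10:53993234-53999967, with folds from 2.59 to 3.26. All 6 overlapped fetal HSC H3K4me1 and 1 overlapped adult HSC H3K4me1. At Mctp2, 5 members spanned 10701 bp, of which none had an adult HSC peak, and at Btaf1, which encodes an ATPase acting on the TATA-binding protein, 5 members spanned 9793 bp, of which 2 did. Some chained members lay on the same fetal H3K4me1 peak, so they are not separate observations of it. The difference in nearest sites from H3K4me1-kept sites was 4.09 points with peaks merged within 1 kb, and 0.50 points (−1.63 to 3.56) among the strongest 20000 fetal sites.

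The second K27 set rarely met the members. A fetal peak overlapped 13 members (0.386%), against 0.482% of all sites, and an adult peak overlapped 15 (0.445%), against 0.492%. H3K4me1-kept and both-kept sites had lower shares, 0.047% and 0.067% for the fetal list and 0.158% and 0.021% for the adult list. Members exceeded H3K4me1-kept sites by 0.338 points (0.154 to 0.613) in the fetal list. In the adult list the difference was 0.287 points (0.067 to 0.584). Within 1 kb there was a fetal peak at 15 members, against 0.96% of all sites, and an adult peak at 19 (0.564%), against 0.796%. The share with an adult peak within 1 kb was 0.269% at H3K4me1-kept sites, 0.295 points lower (0.036 to 0.626), a difference that turned to −0.163 points among the strongest 20000 sites and whose interval included 0 under 4 other settings. Of the members with an overlap, 8 had one at both ages, 7 in the adult list alone and 5 in the fetal list alone, and none had an adult HSC H3K4me1 peak. By −log10 p of the adult peak the leading members lay at Otog, a gene of the inner ear, with a second-set fold of 5.07, at Tmem132c (4.36) and at Tcim (3.98). An Igf2bp3 member, chr6:49211909-49212317, overlapped an adult but no fetal second-set peak, with a fold of 3.15.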

How the data were processed

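ChIPmentation peak lists of fetal and adult HPC and HSC were used. Per the submitters' processing notes, Novoalign was the aligner and MACS2 the peak caller, on mm10 (GRCm38). Tool versions and thresholds were not given in the sources used here. Each list pooled the libraries of a group, and the 3 input libraries were not analysed here. The authors' deposited lists give a fold (ratio) over background and −log10 p and −log10 q values for every peak. These were used only within a list.

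Classes, overlaps (1 bp) and distances were computed with Python 3.11.15, numpy 2.4.6 and pandas 2.3.3, and overlaps were tested on simulated data and against bedtools 2.31.1. Shares carry 95% Wilson and differences Newcombe intervals. Where no site is counted, the limit is 3 counts of the total. Sites went to the nearest protein-coding gene of RefSeq (GRCm38.p6) within 100 kb. That table has no strand, so nearness to gene starts or ends was used. Promoter windows matched 17492 of 21887 coding genes, and 285 of 290 list names matched. No genome was used, so motifs were searched in promoter windows only.

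The members and lists were chosen with earlier results of these data known. Genes were named from the 12 with most members, those of the 10 strongest members, of the 5 largest chains, of the 5 members with the strongest adult second-set peak and of the 5 strongest with an adult HSC peak, and up to 3 genes per list, and not every gene so taken is printed. Promoter genes, Kit, Runx1, Etv6, Igf2bp2, Sox17, some macrophage genes and the gene body counts are named outside that rule, having been chosen after seeing their values, as were the quartiles of the H3K4me1 lists and the summit and 10 kb settings.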

Additional observations from a re-analysis of the deposited data

How the results depend on the processing

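No paired analysis was possible because each group had 1 pooled peak list, and for the same reason no library could be left out. Of 9 alternative settings for each HSC result, all kept the adult HSC difference from H3K4me1-kept sites negative (−63.6 to −52.6 points) and the fetal HSC difference negative (−21.7 to −10.8). Against both-kept sites the fetal HSC difference turned to 5.26 points when the peak had to cover the summit, a setting added after seeing the data.

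The number of members was 2078 with fetal HPC peaks of −log10 q of at least 5, 1851 when an adult HPC peak within 1 kb also removed a site, and 268 among the strongest 20000 fetal sites. The share of members with another within 10 kb was 16.7% (−log10 q of at least 5), 25.1% (overlap of 50% of the site), 19.7% (adult peak within 1 kb removes a site), 21.4% (lists of equal length), 13.1% (peaks merged within 1 kb) and 2.24% (strongest 20000), and with 5 kb or 25 kb as the distance it was 17% or 36.1%.

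The difference in adult second K27 peaks within 1 kb from H3K4me1-kept sites was 0.158 points (fetal −log10 q of at least 5), 0.030 (HSC and second-set −log10 q of at least 5), 0.231 (equal length) and 0.310 (merged), each with an interval that included 0, and −0.163 among the strongest 20000. Against both-kept sites it was −0.319 points within 10 kb. The position difference from H3K4me1-kept sites excluded 0 at an overlap of 50% (−1.28 points), on autosomes (−0.77), among the strongest 20000 (−4.32) and within 2.5 kb of a gene end (−5.43). The HSC identity share was 4.78% where an adult peak within 1 kb removed a site (22 of 460, against 3.64% of all sites) and 1.92% among the strongest 20000 (3 of 156, against 1.34%), and the fetal programme share there was 4% (1 of 25). The causes were not tested. Unknown depth limits all calls: the fetal HPC H3K4me1 list is longer than the adult one.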

Other observations

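The beta-globin cluster on chromosome 7 held members that the naming rule did not take, chosen after their values were seen. Besides the member over the Hbb-bs start, another lay at chr7:103825257-103825540, with a fold of 2.34. Beyond Hbb-y, the embryonic beta-type globin gene, 3 members assigned by distance to the olfactory receptor gene Olfr66 began 15.6 to 24.2 kb from the end of Hbb-y. That side of the cluster is where the locus control region, the distal enhancer of the globin genes, is known to lie. The first and second of these members, at chr7:103868842-103869452 and chr7:103871218-103871553, shared a fetal HSC H3K4me1 fold of 6.42 and overlapped adult HSC peaks with folds of 2.53 and 3.03, and each had an adult HPC peak within 1 kb. The third had neither.

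Some genes outside the naming rule, picked for this value, had mostly members with an adult HSC call, against 22% of all members. Angpt1, the gene of the Tie2 ligand angiopoietin-1, had 5 of 6 members with an adult HSC H3K4me1 peak, and Tgfbr3, the TGF-beta co-receptor gene, also had 5 of 6. All 4 members of Dennd4a and all 4 of Ext2, a heparan sulfate synthesis gene, had one. An adult HPC peak lay within 1 kb of 4 members at Dennd4a, 3 at Ext2, 3 at Angpt1 and 2 at Tgfbr3.

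Of the few genes whose bodies were counted, Lin28b had the most second-set peaks, and no share over all genes was computed. Its gene body held 13 second-set peaks in adult HPC and 0 in fetal HPC, with 6 fetal and 0 adult H3K27ac peaks. It also held 16 H3K4me1 peaks in fetal HPC and 3 in adult HPC, and 24 in fetal HSC and 10 in adult HSC. The 1 Lin28b member overlapped no second-set peak. Across the autosomes members made up from 4.79% of fetal H3K27ac sites on chromosome 11 to 8.27% on chromosome 13. On the X chromosome they made up 2.28%. H3K4me1-kept and both-kept sites also lay on the X chromosome less often than all sites did.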
